A study of Mus musculus with 4 samples.

Results

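This account covers 10 genes that neurons switch on or adjust when they are active, leaving aside the Egr and AP-1 transcription factors. They are the nuclear receptors Nr4a1, Nr4a2 and Nr4a3, the nuclear factors Npas4 and Ier2, the synaptic genes Arc and Homer1, and the MAP kinase phosphatases Dusp4, Dusp5 and Dusp6. The genes were chosen by name for these roles, with earlier results of these data known. All 10 were found among the 22863 genes of the deposited table. All 10 also passed the filter on low values, which left 17784 genes to be tested. The 4 samples were posterior eyes of C3H/f+/+ mice, a strain that makes melatonin and that lacks the Pde6b and rd8 mutations, a pool of retina, RPE, choroid and posterior sclera without the lens and anterior eye. In both conditions mice were kept on a cycle of 12 hours of light and collected at noon. The 2 subjective day samples came from mice left in darkness for 18 hours (CT 6), although another passage of the study gives 30 hours, and the 2 objective day samples came from mice that had seen morning light and then spent 1 hour in darkness (ZT 6). Each sample pooled 4 eyes of a female and a male, so the 4 samples do not separate single animals. The age of these mice is not given in the sources used here.

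Calcium entry and growth factor signals reach the nucleus of a neuron through calcium-dependent kinases and phosphatases and through the ERK branch of the MAP kinase pathway. Within minutes they act on transcription factors already present, such as CREB, SRF and MEF2, and switch on genes that need no new protein. Some of these genes encode transcription factors (Npas4, the NR4A receptors), some encode synaptic proteins (Arc, the short form of Homer1), and some encode phosphatases (Dusp4, Dusp5, Dusp6) that remove phosphate from ERK and so close a feedback loop. Most of these transcripts are short-lived. The NR4A genes, Ier2 and the phosphatases are also expressed in blood vessels, connective tissue, muscle and immune cells, all of which were part of the dissected tissue. In such bulk tissue, fewer cells of a type and less RNA per cell cannot be told apart.

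The upstream sequences of these genes can carry sites for the factors that relay activity. RefSeq (GRCm38.p6) gave a window of 250 bases before the transcription start for 7 of the 10 genes, with 2 windows for Homer1. Arc, Ier2 and Dusp4 had no entry. Windows are shown for 3 genes with both objective day samples above both subjective day samples (Npas4, Nr4a1 and Dusp5), for Nr4a2, the relative of Nr4a1 whose samples overlapped, and for Homer1, whose objective day samples were lower. They lie at chr19:4989972-4990221 (minus strand), chr15:101266596-101266845 (plus), chr2:57124004-57124253 (minus), chr13:93303507-93303756 (plus) and chr19:53528895-53529144 (plus). Each sequence ends at the base before the start that RefSeq gives, which for all but Nr4a2 is not the outermost start of the gene in the GENCODE M21 coordinates given with the values. Capitals mark TGACG on either strand, the core of the cAMP response element to which CREB binds, and also TATAAA in Nr4a2 and the CArG boxes of serum response factor in Dusp5.
Npas4: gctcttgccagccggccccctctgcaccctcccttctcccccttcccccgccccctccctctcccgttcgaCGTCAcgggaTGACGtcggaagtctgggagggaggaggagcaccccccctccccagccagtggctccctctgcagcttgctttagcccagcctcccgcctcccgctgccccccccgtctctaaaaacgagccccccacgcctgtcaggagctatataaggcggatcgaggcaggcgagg
Nr4a1: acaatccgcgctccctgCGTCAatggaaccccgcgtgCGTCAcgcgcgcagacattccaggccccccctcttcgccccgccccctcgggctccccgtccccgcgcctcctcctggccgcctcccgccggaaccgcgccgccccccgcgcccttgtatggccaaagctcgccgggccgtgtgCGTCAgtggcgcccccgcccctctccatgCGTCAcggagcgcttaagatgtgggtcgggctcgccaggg
Nr4a2: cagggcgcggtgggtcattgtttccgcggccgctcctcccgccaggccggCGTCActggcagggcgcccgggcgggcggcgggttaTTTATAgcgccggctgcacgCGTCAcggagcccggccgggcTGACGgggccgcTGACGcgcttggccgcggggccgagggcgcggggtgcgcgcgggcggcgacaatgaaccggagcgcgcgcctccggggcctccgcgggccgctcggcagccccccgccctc
Homer1: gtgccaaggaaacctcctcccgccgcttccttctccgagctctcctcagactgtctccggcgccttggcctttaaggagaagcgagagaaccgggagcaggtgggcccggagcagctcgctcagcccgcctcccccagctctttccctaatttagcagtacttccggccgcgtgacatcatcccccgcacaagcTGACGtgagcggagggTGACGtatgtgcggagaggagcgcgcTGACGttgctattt
Dusp5: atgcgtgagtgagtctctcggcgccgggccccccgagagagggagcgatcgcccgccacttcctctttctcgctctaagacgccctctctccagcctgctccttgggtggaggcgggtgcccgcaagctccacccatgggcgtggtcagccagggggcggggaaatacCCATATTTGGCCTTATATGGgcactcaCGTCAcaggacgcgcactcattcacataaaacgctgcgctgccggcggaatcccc
Npas4 had 2 matches to the core, Nr4a1 and Nr4a2 had 4 each, Homer1 had 3 and Dusp5 had 1. In all, 6 of the 8 windows had a match, the second window of Homer1 and that of Dusp6 being without, while 17.8% of the 32851 promoter windows of all genes held TGACG. None of the 8 windows held the full element TGACGTCA (1.55% of all windows), whose letters include the core, or the NR4A binding element AAAGGTCA (1.34%). Dusp5 held 2 adjacent CArG boxes, a motif found in 1.47% of all windows, and no other window of these genes held it. TATAAA, which Nr4a2 held on the opposite strand, was found in 12.4% of all windows. Such matches describe the letters of a window and are not measured binding.

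The deposited values, called adjusted counts here, were read as gene counts that the authors brought to a shared library size, a form inferred from the values and not stated in the sources, with totals of 33278417 to 35236783 per sample. In the first subjective day sample nearly all values up to 200 were whole multiples of 0.9985 to within 0.05 of a read, so that its values of Arc and Npas4 rest on 36 and 40 reads. In the other samples 40.6% to 63.9% of such values were whole multiples of a single step near 1, and reads could not be recovered for all genes. Conditions were compared with limma on log2(adjusted count + 1), and fold changes, on that scale, are objective day over subjective day, so that changes at low counts are understated. A gene was called at a Benjamini-Hochberg adjusted p under 0.05 over all genes tested. By that rule 8.51% of the genes tested were called, 1.06% as higher and 7.45% as lower in objective day. The called genes were 87.5% lower, a share that was 66.1% with every sample rescaled to the same total and 52.6% after the trend with transcript GC content was removed. An exact two-sided permutation test with 2 samples in each condition gives at best p = 0.333, and the calls therefore depend on the spread that limma borrows across genes. Fold changes rose with the GC content of a gene's longest transcript (Spearman correlation 0.58 over 17536 genes, which share the same 4 samples). For each of the 10 genes the fold change is therefore also given after each sample's GC trend had been removed. Such a removal also takes away any regulation that follows GC content.

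Of the 10 genes, 1 was called higher in objective day (Ier2) and 1 was called lower (Homer1), against the shares of 1.06% and 7.45% among all genes. For 7 genes the conditions did not overlap, which was so for 56.1% of all genes tested. The objective day samples were both above the subjective day samples for 5 of them (Npas4, Ier2, Nr4a1, Arc and Dusp5), compared with 27.9% of all genes tested. They lay below for 2 (Homer1 and Dusp6), compared with 28.2%, and the samples overlapped for Nr4a2, Nr4a3 and Dusp4. The median log2 fold change of the 10 genes was 0.13, beside 0.015 for all genes tested. Because the genes were chosen with earlier results of these data known, these comparisons with all genes are a description and not a test.

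**Figure D1:**
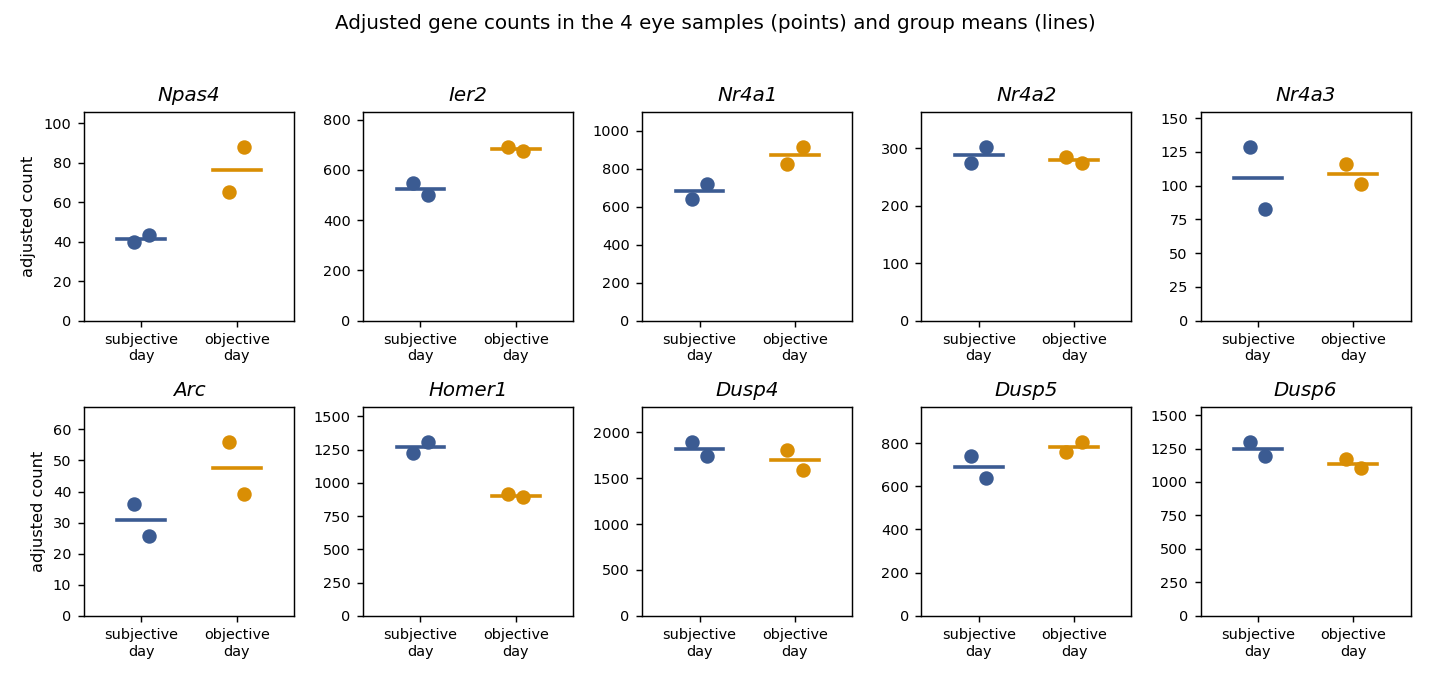
Adjusted gene counts (vertical axes, each starting at 0) in the 2 subjective day and 2 objective day samples for the 10 genes; points are samples and lines are group means. Npas4, Ier2 and Nr4a1 sit higher in both objective day samples and Homer1 sits lower, while the points of Nr4a2, Nr4a3 and Dusp4 overlap.

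Npas4 (ENSMUSG00000045903; chromosome 19 of GRCm38, 4984355 to 4990316, minus strand) encodes a basic helix-loop-helix PAS transcription factor that is found mainly in neurons and is switched on by calcium entry. Its adjusted counts were 39.9 and 43.2 in the subjective day samples and 65.0 and 88.1 in the objective day samples. Both objective day samples were thus above both subjective day samples, although they also differed from each other more than the subjective day samples did. The log2 fold change was 0.85 (limma adjusted p = 0.0668, standard error 0.23), a 1.80-fold higher mean with a 95% interval of 1.24 to 2.63. It was the largest estimate of the 10 genes with all samples in the fit, although that of Arc was larger without the first subjective day sample (0.84 against 0.80) and without the second objective day sample (0.86 against 0.64), and it did not pass the threshold. With the GC trend removed it was 0.75 (limma adjusted p = 0.197). With each sample left out in turn it ran from 0.64 to 1.07.

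Ier2 (ENSMUSG00000053560; chromosome 8, 84661331 to 84662852, minus strand) is a gene without introns whose small nuclear protein is made soon after growth factor or activity signals in many cell types. The subjective day samples had 548 and 500.0 adjusted counts and the objective day samples had 692 and 675. The conditions were separated by 0.30 on the log2 scale. Ier2 was higher in objective day by a log2 fold change of 0.38 (limma adjusted p = 0.0364, standard error 0.085), or 1.30-fold with a 95% interval of 1.14 to 1.499. Its transcript has a GC content of 60.9%, the highest of the 10, and the log2 fold change after removal of the GC trend was 0.25 (limma adjusted p = 0.218). The call also depended on single samples. It was lost without the second subjective day sample (limma adjusted p = 0.0784), without the first objective day sample (0.196) and without the second objective day sample (0.152), while the log2 fold change stayed between 0.32 and 0.45.

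The NR4A receptors are orphan nuclear receptors that act without a known hormone and are controlled mainly through how much of them is made. Nr4a1 (ENSMUSG00000023034; chromosome 15, 101254269 to 101274795, plus strand) had 642 and 719 adjusted counts in the subjective day samples and 826 and 915 in the objective day samples. The samples did not overlap, and the conditions were 0.20 apart on the log2 scale. The log2 fold change was 0.36 (limma adjusted p = 0.0585, standard error 0.092), or 1.28-fold with a 95% interval of 1.10 to 1.48, just outside the threshold. It passed with all samples rescaled to the same total (0.40, limma adjusted p = 0.0461) and without the second subjective day sample (0.44, limma adjusted p = 0.0237). It did not pass without the first subjective day sample (0.27, limma adjusted p = 0.0807), without the first objective day sample (0.43, limma adjusted p = 0.0938) or without the second (0.28, limma adjusted p = 0.298). With the GC trend removed the log2 fold change was 0.25 (limma adjusted p = 0.33).

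Nr4a2 (ENSMUSG00000026826; chromosome 2, 57106830 to 57124003, minus strand), which is also needed by dopamine neurons, had 274 and 302 adjusted counts in the subjective day samples and 284 and 274 in the objective day samples. Both objective day values lay within the range of the subjective day values. Its log2 fold change of -0.044 (limma adjusted p = 0.84) had a 95% interval of 0.813-fold to 1.16-fold, and it was -0.0070 with the GC trend removed. Nr4a3 (ENSMUSG00000028341; chromosome 4, 48045153 to 48086447, plus strand) had 129 and 82.7 in the subjective day samples and 116 and 101 in the objective day samples. The subjective day samples of Nr4a3 lay on either side of the objective day samples. The log2 fold change was 0.072 (limma adjusted p = 0.878) and its interval, 0.722-fold to 1.53-fold, was wider than that of Nr4a2. It was 0.094 with the GC trend removed. With single samples left out, the log2 fold change of Nr4a3 ran from -0.24 to 0.39, so these samples give it no direction.

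The ratio of 2 genes within a sample, taken here on the log2(adjusted count + 1) scale, cancels a factor shared by all genes of the sample, apart from the added 1, which weighs most on the low genes Npas4 and Arc. The log2 ratio of Nr4a1 to Nr4a2 was 1.23 and 1.25 in the subjective day samples and 1.54 and 1.73 in the objective day samples. The ratio was thus higher in both objective day samples, by 0.40 on average, or by 0.25 with the GC trend removed. For Nr4a1 over Nr4a3 the log2 ratios were 2.31 and 3.10 against 2.82 and 3.16, which overlapped. With 4 samples an exact test of such a ratio cannot go below p = 0.333, so the unequal change of the family is a description. Nr4a1 also differs from Nr4a2 and Nr4a3 in the GC content of its longest transcript, which is 57.0% against 47.9% and 48.4%.

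Arc (ENSMUSG00000022602; chromosome 15, 74669083 to 74672570, minus strand) encodes a synaptic protein that promotes the removal of AMPA receptors from the surface and that can form capsid-like particles. It had 35.95 and 25.7 adjusted counts in the subjective day samples and 55.9 and 39.1 in the objective day samples. The lower objective day sample lay just above the higher subjective day sample, with 0.12 between them on the log2 scale. The log2 fold change was 0.60 (limma adjusted p = 0.254, standard error 0.30), and its 95% interval of 0.938-fold to 2.46-fold included both no change and a rise above the estimate for any of the other genes. A change in Arc was therefore not resolved with these samples. The estimate also moved with single samples, to 0.35 without the first objective day sample, 0.37 without the second subjective day sample, 0.84 without the first subjective day sample and 0.86 without the second objective day sample. With the GC trend removed the log2 fold change was 0.48 (limma adjusted p = 0.533).

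Homer1 (ENSMUSG00000007617; chromosome 13, 93299635 to 93405129, plus strand) encodes scaffold proteins of the postsynaptic density. Its long forms join metabotropic glutamate receptors to inositol trisphosphate receptors and Shank proteins, and its short form, Homer1a, which activity induces, competes with them. The subjective day samples had 1226 and 1307 adjusted counts and the objective day samples had 916 and 890.1. Both objective day samples were lower, and the conditions were 0.42 apart on the log2 scale. Homer1 was lower in objective day by a log2 fold change of -0.49 (limma adjusted p = 0.00881, standard error 0.071), or 0.713-fold with a 95% interval of 0.636 to 0.800. The log2 fold change stayed between -0.53 and -0.44 with each sample left out in turn and was called each time.

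The direction of Homer1 depended on how GC content was treated. Its longest annotated transcript has a GC content of 36.9%, the lowest of the 10 genes, and in the lowest of 20 bins of genes ordered by GC content the median log2 fold change of all genes was -0.51. With the GC trend removed by that transcript, the log2 fold change of Homer1 was 0.17 (limma adjusted p = 0.359). GENCODE M21 lists 12 transcripts of Homer1. The longest has 5 exons and 5713 bases and ends at 93360462, whereas a transcript of 9 exons and 4287 bases reaches 93405129 and has a GC content of 37.8%. When the GC content was averaged over the 12 transcripts, which gave 43.5%, a setting chosen after seeing the data, the log2 fold change was -0.21 (limma adjusted p = 0.195). The deposited counts are per gene and do not separate the short form from the long forms, so a shift between them was not measured here.

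**Figure D2:**
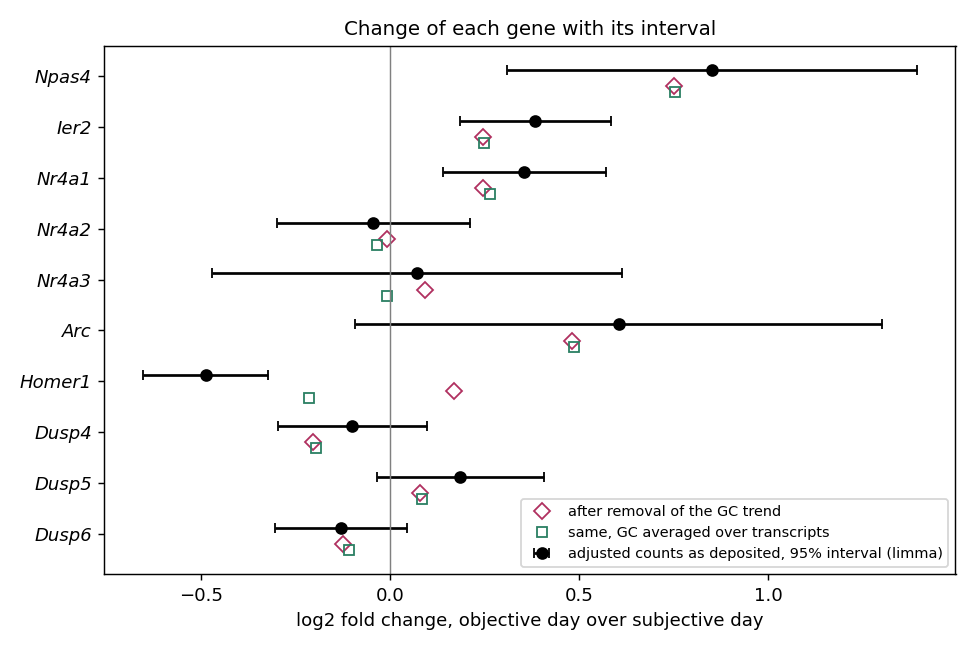
Log2 fold change (horizontal axis) of the 10 genes with the 95% interval of limma's test (circles and bars), after removal of the GC trend by the longest transcript (diamonds) and by the GC content averaged over transcripts (squares). The point of Homer1 moves from -0.49 to 0.17 and -0.21, while Npas4 stays at 0.75 or above.

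**Figure D3:**
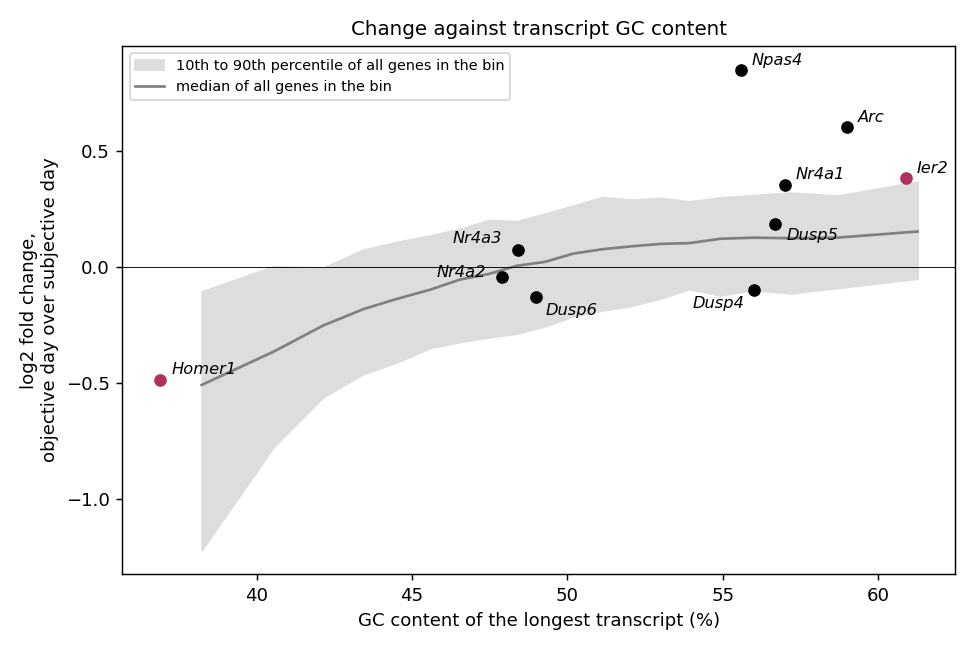
Log2 fold change of the 10 genes (vertical axis) against the GC content of the longest transcript in percent (horizontal axis), over the median (line) and the 10th to 90th percentile (band) of all genes tested in 20 bins of GC content. Homer1, at 36.9%, lies on the falling side of the trend, and Npas4, Arc, Nr4a1 and Ier2 lie above the band.

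The MAP kinase phosphatases differ in where they act. DUSP4 and DUSP5 are nuclear, with DUSP5 acting on ERK, and DUSP6 is a cytoplasmic phosphatase of ERK. Dusp4 (ENSMUSG00000031530; chromosome 8, 34807297 to 34819894, plus strand) had 1894 and 1741 adjusted counts in the subjective day samples and 1811 and 1585 in the objective day samples, and these overlapped. Its log2 fold change was -0.10 (limma adjusted p = 0.503) with an interval of 0.814-fold to 1.07-fold, and -0.20 with the GC trend removed (limma adjusted p = 0.322).

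Dusp5 (ENSMUSG00000034765; chromosome 19, 53529109 to 53542431, plus strand) had 739.9 and 639 in the subjective day samples and 760.0 and 805 in the objective day samples. The objective day samples were higher by as little as 0.039 on the log2 scale at their nearest, and the log2 fold change of 0.19 (limma adjusted p = 0.264) had an interval of 0.977-fold to 1.33-fold. It was 0.078 with the GC trend removed (limma adjusted p = 0.763). An antisense transcript, AC137853.2, shares 547 exonic bases with Dusp5, and because the strand setting of the counting is not given in the sources used here, reads in the shared bases cannot be told apart. Dusp6 (ENSMUSG00000019960; chromosome 10, 99263231 to 99267489, plus strand) had 1299 and 1191 in the subjective day samples and 1169.5 and 1105 in the objective day samples, all close together. Its log2 fold change was -0.13 (limma adjusted p = 0.325) with an interval of 0.809-fold to 1.03-fold, and -0.12 with the GC trend removed. The intervals of all 3 phosphatases thus left out a change of 1.5-fold in either direction. Over the fits without single samples the log2 fold change ran from -0.20 to -0.0042 for Dusp4, from 0.080 to 0.29 for Dusp5 and from -0.19 to -0.068 for Dusp6, so the size of each rested on single samples.

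The log2 ratio of Dusp5 to Dusp6 was -0.81 and -0.90 in the subjective day samples and -0.62 and -0.46 in the objective day samples. It was higher in both objective day samples, as was the ratio of Dusp5 to Dusp4, with -1.36 and -1.45 against -1.25 and -0.98. As deposited, the widest separation of these pairs was between Npas4 and Homer1, with log2 ratios of -4.91 and -4.89 against -3.80 and -3.32. For Ier2 over Homer1 the ratios were -1.16 and -1.38 against -0.40 and -0.40. In contrast, the ratio of Npas4 to Arc overlapped between the conditions, at 0.15 and 0.73 against 0.21 and 1.15. The ratios to Homer1 depended on GC content as Homer1 itself did. With the GC trend removed, the difference between conditions fell from 1.34 to 0.58 for Npas4 over Homer1 and from 0.87 to 0.078 for Ier2 over Homer1. With GC content averaged over transcripts it was 0.97 and 0.46. By the longest transcript it was 0.20 for Dusp5 over Dusp6 and 0.28 for Dusp5 over Dusp4, and by the average it was 0.19 and 0.28. These pairs were chosen with the values of the genes known, so their separation is a description.

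**Figure D4:**
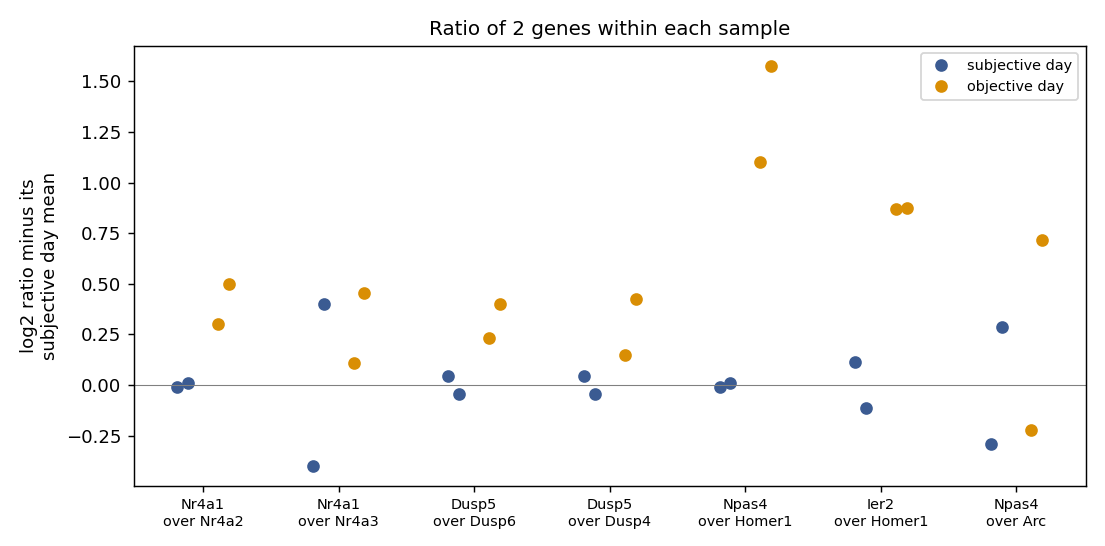
Log2 ratio of 2 genes within each sample, minus its mean over the subjective day samples (vertical axis), for 7 pairs in the 2 subjective day and 2 objective day samples (points). The ratios of Npas4 and of Ier2 to Homer1 stand highest in objective day, by 1.34 and 0.87 on average (0.58 and 0.078 with the GC trend removed, or 0.97 and 0.46 by the GC content averaged over transcripts, neither plotted), and those of Nr4a1 to Nr4a3 and Npas4 to Arc overlap.

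To compare levels between genes, adjusted counts were divided by the length of the longest transcript. Per kilobase and averaged over the 4 samples, Dusp4 was the most abundant (641), followed by Dusp6 (426), Ier2 (397), Nr4a1 (304), Dusp5 (298), Homer1 (190), Nr4a2 (79.4), Nr4a3 (18.8), Npas4 (15.6) and Arc (12.8). Within samples, Dusp6 was above Ier2 in 2 of 4, Nr4a1 above Dusp5 in 3 of 4, Nr4a3 above Npas4 in 3 of 4 and Npas4 above Arc in 2 of 4, so the order within these pairs was not resolved. All other neighbours kept their order in all 4 samples, Ier2 above Nr4a1 included, although the ranges of that pair over the samples overlapped. Nr4a3 and the neuron-restricted genes Npas4 and Arc were thus the least abundant, and the phosphatases and Ier2, which many cell types express, were among the most abundant. For Homer1, whose transcripts differ in length, the level per kilobase holds for the longest transcript only.

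The rest of the pathway was examined with 7 lists of 124 related gene names, of which 122 were found in the table and tested. Of these, 4 were called higher and 14 lower, or 14.8% against 8.51% of all genes tested. After removal of the GC trend 3 remained called, namely Vgf, Spred1 and Spred3, while 211 of all 17536 genes in that fit were called. Of the 35 other rapid response genes none was called higher in limma's test (1 at an unadjusted p under 0.05, which 9.51% of all genes had as higher), and 18 of the 35 had a positive log2 fold change, with a median of 0.016. The lower ones were Coq10b (-0.70), Tiparp (-0.62), which encodes an ADP-ribosyltransferase, the antiproliferative gene Btg1 (-0.37) and Fbxo33 (-0.35), all given as log2 fold changes. Their transcripts had GC contents of 40.4% to 46.6%. Among the 13 late activity response genes, Vgf, a secreted neuropeptide precursor, was higher (log2 fold change 1.36, limma adjusted p = 0.00531), with 584 and 496 adjusted counts in the subjective day samples against 1459 and 1303. Its log2 fold change with the GC trend removed was 1.19 (limma adjusted p = 0.00483). Syt4, a synaptotagmin of secretory vesicles, was lower (-0.32), a direction that turned to 0.058 with the GC trend removed. Bdnf, an activity-dependent neurotrophin, had a log2 fold change of 0.043 (limma adjusted p = 0.894).

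None of the 8 other dual specificity phosphatases tested was called in limma's test (3 at an unadjusted p under 0.05, as had 25.4% of all genes), and 7 of the 8 had a positive log2 fold change (52.6% of all genes), with a median of 0.10. The median was 0.021 with the GC trend removed. Of the Sprouty and Spred genes, whose products restrain the activation of ERK, 1 of 7 was higher and 1 was lower. Spred3 had 818 and 754 adjusted counts in the subjective day samples and 1153 and 1146 in the objective day samples (log2 fold change 0.55, limma adjusted p = 0.0071). Spred1 had 2206 and 2508 against 1422 and 1449.5 (log2 fold change -0.71, limma adjusted p = 0.00558). These relatives thus lay on opposite sides. Both calls held after removal of the GC trend, at 0.45 for Spred3 (limma adjusted p = 0.0341) and -0.37 for Spred1 (limma adjusted p = 0.0469).

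Of the 19 genes of the ERK cascade, 1 was called higher and 2 lower in limma's test, against 1.06% and 7.45% of all genes. Those called included Rps6ka3 (-0.53), which was lower, and Rps6ka2 (0.37), which was higher on the log2 scale, and the median was -0.078. After removal of the GC trend none of the 19 was called (4 at an unadjusted p under 0.05, against 13.5% of all genes), with Rps6ka3 at -0.14 and Rps6ka2 at 0.28. Of the 24 genes that carry calcium signals to the nucleus, 5 were lower and 0 were higher in limma's test, against 7.45% and 1.06% of all genes. At an unadjusted p under 0.05 these were 7 and 4, against 15.9% and 9.51%. They were the calcineurin subunits Ppp3r1 (-0.63), Ppp3cb (-0.53) and Ppp3ca (-0.35), the transcription factor Creb1 (-0.45) and the kinase Camk4 (-0.42), as log2 fold changes, while the median of the list was 0.069. After removal of the GC trend none of the 24 was called (4 at an unadjusted p under 0.05, against 13.5% of all genes). The log2 fold changes were then -0.39 for Camk4 (limma adjusted p = 0.0545), -0.30 for Ppp3r1 (limma adjusted p = 0.0702), -0.23 for Ppp3ca, -0.092 for Ppp3cb and 0.001 for Creb1. Of 16 genes whose products bind those of the 10 genes, the glutamate receptor Grm5, a partner of the Homer proteins, was lower (-0.49) and Shank1, also a partner of Homer, was higher (0.34), and neither was called after removal of the GC trend.

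**Figure D5:**
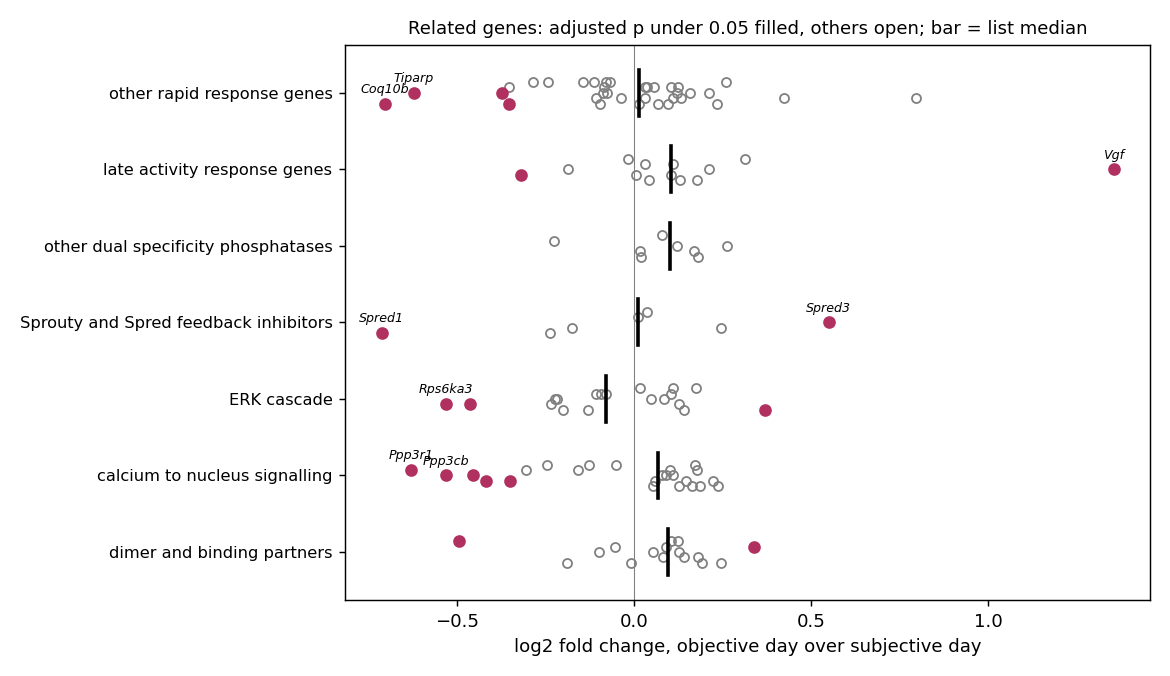
Log2 fold change (horizontal axis) of each gene tested in 7 lists of related genes (rows); filled points had an adjusted p under 0.05 in limma's test, open points did not, and bars are list medians. Most points lie near 0, and the filled points lie mostly below 0, with Vgf at 1.36 and Spred3 at 0.55 as the farthest above it.

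Markers of the tissues in the dissection were read beside these genes. Retinal neurons and RPE were present as labelled, with summed levels of 48322 to 50719 adjusted counts for the bipolar cell markers and 62779 to 74987 for the RPE markers in the 4 samples, and none of the 5 rod, 5 cone, 5 bipolar, 5 amacrine and 6 ganglion cell markers was called in limma's test (6 of the 26 at an unadjusted p under 0.05, against 25.4% of all genes). Of the RPE markers Best1 was nearly absent, at 0 to 9.70 adjusted counts, and Rpe65 was lower in objective day (log2 fold change -0.52). Calb1 of horizontal cells (-0.72), Aqp4 (-0.44) and Slc1a3 (-0.34) of Müller glia and Lum of the sclera (-0.74) were also lower. No other marker tested of these cell types or of RPE was called. Log2 fold changes were positive for 1 of 4 horizontal cell markers and 2 of 5 Müller glia markers, against 52.6% of all genes. They were also positive for 3 of 5 fibroblast and sclera markers and 2 of 5 RPE markers. No marker of melanocytes, skeletal muscle or smooth muscle was called (5 of 15 at an unadjusted p under 0.05, read against the same 25.4%). In limma's test 4 of 4 markers of surface epithelium were lower, with a summed level of 10375 and 10854 adjusted counts in the subjective day samples against 2965 and 5430, while Krt12, the keratin that defines the cornea, stayed between 1.78 and 12.5. Of 5 blood markers tested 3 were higher, with sums of 3053.5 and 3161 against 4301 and 4574, and globin genes share near-identical copies. Of 5 endothelial markers, Cldn5 was higher (log2 fold change 0.52, limma adjusted p = 0.0207). After removal of the GC trend the 4 surface epithelium markers were still called lower and Hba-a1 of the blood markers higher, and 2 melanocyte markers were higher. The calls of Rpe65 (-0.24), Calb1 (-0.052), Aqp4 (-0.10), Slc1a3 (-0.23), Lum (-0.44) and Cldn5 (0.39) were lost. The sums of the 6 microglial markers ran from 2554 to 3139 in subjective day and from 3157 to 3273 in objective day, and none was called. At an unadjusted p under 0.05, 3 of the 6 were higher, against 9.51% of all genes, and 0 with the GC trend removed. The sums of the lens markers were 13529 and 947 in the subjective day samples and 10699 and 2097 in the objective day samples, high in the first sample of each condition and low in the second. The part of these tissues in the values of Ier2, Nr4a1 and the phosphatases was not tested.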

How the data were processed

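Polyadenylated RNA of 4 samples of mouse posterior eyes, 2 of subjective day and 2 of objective day, was sequenced on a single lane with reads of 50 bases. According to the methods, the authors aligned reads to Ensembl release 72 with Tophat 2.0.9 and Bowtie2 2.1.0 and counted genes with HTSeq, and they used edgeR for their own comparison. The strand setting and the low-count filter are not given in the sources used here. The deposited values are a signal per gene and sample read here as gene counts that the authors brought to a shared library size, since they are fractional and sum to similar totals, although the sources do not state this. Steps of whole reads were found in 1 sample only, so no count test was run. The table also holds the authors' own fold changes, mean levels and p-values, which were not used. No sample column was left out (0 unused). Results for some genes are not reported here.

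Because the values are not raw counts, limma 3.58.1 in R 4.3.3 was used on log2(value + 1) for genes with at least 10 in at least 2 samples, with a variance prior that follows mean expression. Benjamini-Hochberg adjustment ran over all genes tested, at 0.05, and intervals are limma's 95% intervals. All members were named, and from each list the called genes, at most 6 by adjusted p. The members and lists were chosen with earlier results of these data known. GC content and length came from the longest transcript in GENCODE M21 (GRCm38) and covered 98.6% of tested genes, and local regression (span 0.3) took out the GC trend in each sample. The procedure was tested on simulated data. Nothing in the sources says that samples with the same number were processed together. The labels call the samples of a condition biological replicates. Alternatives covered scaling, filter, pseudocount, variance prior, precision weights, replicate block, GC content and each sample left out. Figures were drawn with matplotlib 3.10.9.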

Additional observations from a re-analysis of the deposited data

How the results depend on the processing

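Pseudocounts of 0.5 and 10, no filter, a mean of at least 50 (which leaves out Arc), median ratio scaling and precision weights each called Ier2 and Homer1, as reported, and the number of genes called over the whole table stayed between 1401 and 1563. Rescaling to equal totals called 617 genes higher and 3 of the 10 (Nr4a1 added). A constant variance prior called 0 genes (0 lower, 0 higher, 0 of the 10, of which 4 had an unadjusted p under 0.05), with 3586 at an unadjusted p under 0.05 against 4512. The replicate block, which rests on sample numbers alone (same-numbered samples deviated together with a correlation of 0.32 across genes), called 3613 genes, 2331 lower and 1282 higher, and 4 of the 10, adding Nr4a1 (adjusted p = 0.00947 in limma) and Npas4 (0.0268). Removal of the GC trend called 211 genes, 111 lower and 100 higher, and 0 of the 10, with Homer1 at 0.17. At an unadjusted p under 0.05 there were 5 of the 10, against 13.5% of all genes in that fit. With the block as well, 712 genes were lower and 914 higher, 3 of the 10 were called (Nr4a1, Npas4 and Dusp4 at -0.20), and Homer1 was at 0.17. With GC content averaged over transcripts, chosen after seeing the data, 209 were called, 152 lower and 57 higher, and 0 of the 10, and Nr4a3 turned to -0.0070. At an unadjusted p under 0.05 there were 5 of the 10, against 2572 of 17536 genes in that fit. With each sample left out, 674 to 2778 genes were called, 613 to 1781 lower and 38 to 997 higher, and 1 to 2 of the 10; the remaining sample of a condition is then assumed to vary like the other. Without the second subjective day sample Nr4a2 turned to 0.028 (range over the 4 samples left out -0.12 to 0.028) and Nr4a3 to -0.24 (range -0.24 to 0.39), and without the first objective day sample Nr4a3 turned to -0.027. Why these settings moved the counts was not tested. Npas4, Nr4a1, Ier2, Arc and Dusp5 stayed positive and Dusp4 and Dusp6 negative in every alternative that gave a value.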

Other observations

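Among the rapid response genes outside the 10, Maff, a small Maf transcription factor, had the largest positive log2 fold change and was picked out after its value was seen. It had 39.9 and 45.3 adjusted counts in the subjective day samples against 74.7 and 74.6 in the objective day samples, close to the values of Npas4. Its log2 fold change was 0.80 (limma adjusted p = 0.0579, standard error 0.20), so it did not pass the threshold either. With the GC trend removed it was 0.68 (limma adjusted p = 0.194).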
